A study of Xenopus tropicalis with 4 samples.

Results

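Whole-body RNA of adult male frogs (Xenopus tropicalis) was read at its 3′ ends in 2 libraries, and these males were 2 of the 4 libraries of the series. They were chosen by their labels alone, as the columns Male 1 and Male 2 of the deposited table, and the females were not used. Each library came from the homogenate of 1 adult frog; the age, the strain and any treatment were not given in the sources used here. Trizol was used to extract the RNA, which was broken into fragments, enriched for poly(A) tails, copied and amplified, and the authors deposited the number of reads at each poly(A) site. The males are 1 group, so no test between conditions was made. Values are given for each frog, and an SD is over n = 2 and includes all differences between the frogs and between their libraries.

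Most messenger RNAs are cut and given a poly(A) tail at a site chosen by the cleavage and polyadenylation machinery, and a gene with several such sites makes transcripts with different 3′ ends. Whole transcriptome termini site sequencing, or WTTS-seq, reads that end, so each read is taken to report 1 transcript end and counts were not divided by gene length. An oligo(dT) primer can also start on A-rich stretches inside a transcript, and how many sites arose that way was not tested. In a whole body, the tissues with most RNA and the most abundant transcripts take most reads, and fewer cells of a type cannot be told apart from less RNA per cell.

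Male 1 had 2779715 reads and male 2 had 1531471. Reads lay at 30156 sites and in 11535 genes in male 1, and at 40368 sites and in 13146 genes in male 2, so the library with fewer reads had more sites. Sites with a single read were 7.01% of the sites of male 1 and 22.5% of those of male 2, and with male 1 randomly thinned to the total of male 2 it had 28564 sites, of which 12.05% had a single read. At equal depth, too, male 2 had more sites and more of them rested on 1 read. Of 44949 sites with a read in either male, 25575 had a read in both, and these held 98.5% of the reads of male 1 and 97.0% of those of male 2. The sites seen in male 2 only numbered 14793, and those seen in male 1 only numbered 4581. A count of 0 allowed a level of up to 1.08 CPM (reads scaled to a library of 1000000) in male 1 and up to 1.96 CPM in male 2, taken as 3 reads and covering counting error only.

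The male libraries were led by transcripts of skeletal muscle and of the ribosome. The gene with most reads was ckm, which encodes the muscle creatine kinase that regenerates ATP during contraction. It had 42108 CPM in male 1 and 19051 CPM in male 2, the highest level in both frogs, with 99.7% and 99.5% of its reads at 1 site at position 49713388 on the plus strand of chromosome 8. Next by mean level was myl1, an essential light chain of fast muscle myosin (chromosome 9, minus strand), with 20433 CPM in male 1 and 10740 CPM in male 2. tnni2, the inhibitory troponin subunit of fast muscle, had 6307 CPM in male 1 and 6792 CPM in male 2, the closest match of the 4 marker genes. The trypsin gene try10, a digestive enzyme of the exocrine pancreas, had 3971 CPM in male 1 and 12961 CPM in male 2. The 4 marker genes were chosen with earlier results of these data known, so their place among the 30 most read genes with a symbol is a description only. Of the 4, 3 are genes of skeletal muscle, and none was compared with females.

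**Figure D1:**
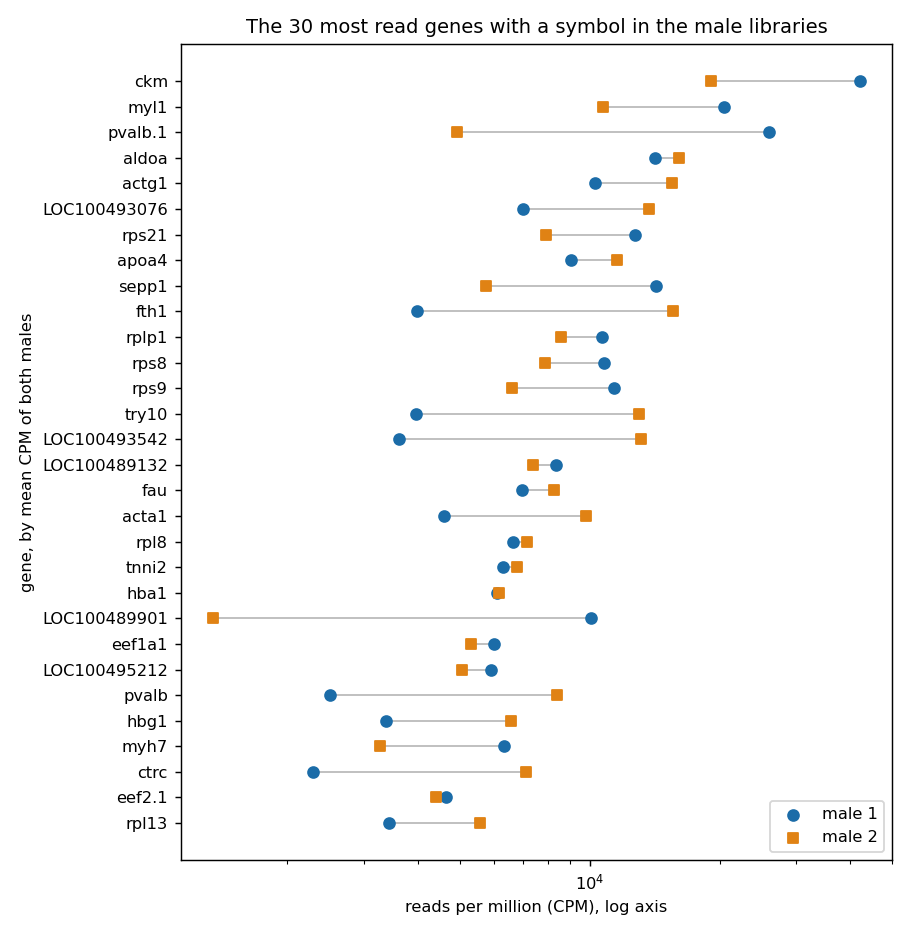
Level of the 30 most read genes with a symbol, in CPM on a log axis, with a circle for male 1 and a square for male 2 and 1 gene per row in order of mean level. ckm was highest in both males, and pvalb.1 and LOC100489901 had the widest gaps between the frogs on the log axis among these genes.

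The muscle genes named here did not all differ in the same direction between the frogs. The parvalbumins, calcium buffers of fast fibres, went in opposite directions: pvalb.1 had 25885 CPM in male 1 and 4929 CPM in male 2, and pvalb had 2507 CPM in male 1 and 8383 CPM in male 2. With both libraries scaled by TMM (trimmed mean of M-values), pvalb.1 was 6.15-fold higher in male 1 and pvalb 2.85-fold higher in male 2. acta1, the skeletal muscle alpha-actin, had 4606 CPM in male 1 and 9772 CPM in male 2. The myosin heavy chain gene myh3 had 5835 CPM in male 1 and 3064 CPM in male 2, while the regulatory light chain gene mylpf had 1965 CPM in male 1 and 4607 CPM in male 2. Of the 56 skeletal muscle genes matched to the table, all 56 had reads, and together they had 135348 CPM in male 1 and 89552 CPM in male 2. These sums are 13.5% and 8.96% of all reads. Of the 53 skeletal muscle genes with at least 10 reads, 35.8% were more than 2-fold apart on the TMM scale. Over all genes with at least 10 reads this share was 43.4%.

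The next genes of the list included aldoa, the muscle form of the glycolytic enzyme aldolase, with 14157 CPM in male 1 and 16080 CPM in male 2. actg1, a cytoplasmic actin, had 10269 CPM in male 1 and 15448 CPM in male 2. aldoa had 100% of its reads in male 1 and 99.9% in male 2 at 1 site, and for actg1 no other site was used. Genes of secreted and storage proteins stood beside them. apoa4, an apolipoprotein, had 9030 CPM in male 1 and 11563 CPM in male 2, sepp1, which encodes the plasma selenium carrier selenoprotein P, had 14224 CPM in male 1 and 5738 CPM in male 2, and the ferritin heavy chain gene fth1 had 3992 CPM in male 1 and 15590 CPM in male 2. The alpha-globin gene hba1 was the most even of the 30 on the CPM scale, with 6091 CPM in male 1 and 6152 CPM in male 2. Between library-total and TMM scaling, 4 of the 30 genes changed which male was higher.

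Some of the most read genes carry only a locus name. LOC100493076 had 6998 CPM in male 1 and 13727 CPM in male 2, and RefSeq lists it as protein coding. LOC100493542, which RefSeq lists as a long noncoding RNA, had 3623 CPM in male 1 and 13151 CPM in male 2. LOC100489901 (chromosome 10, minus strand) had 10076 CPM in male 1 and 1345 CPM in male 2, 8.78-fold apart on the TMM scale, the widest ratio among the 30. A site without a gene on the same strand, 11687 bases beyond the last used site of LOC100489901, showed the same order, with 7578 CPM in male 1 and 688 CPM in male 2.

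Reads were concentrated in few genes to a similar extent in both frogs, although the genes at the top were not all the same. The 10 genes of highest mean level held 16.0% of the reads of male 1 and 12.08% of those of male 2 (14.03% ± 2.76, SD, n = 2). The 100 genes of highest mean level held 44.6% and 44.7%. Of the reads at gene sites, 50% lay in 85 genes in male 1 and in 100 genes in male 2. The lists of the 100 most read genes of each male shared 73 genes, 73% of either list.

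The gene lists of tissues and basic functions, chosen with earlier results of these data known, described what a male whole body contributed. Ribosomal protein genes came first: all 80 matched genes had reads, with 148093 CPM in male 1 and 169252 CPM in male 2. Their median level over the members was 1225 CPM, beside 7.37 CPM over all genes with a read. The highest were rps21 (12729 CPM in male 1 and 7907 CPM in male 2) and rplp1 (10638 CPM in male 1 and 8595 CPM in male 2). Translation factors had 16617 CPM in male 1 and 21099 CPM in male 2, led by the elongation factor gene eef1a1 with 5993 CPM in male 1 and 5322 CPM in male 2. The glycolysis list had 29302 CPM in male 1 and 25285 CPM in male 2. These sums include gys1, a glycogen synthase gene and not one of glycolysis itself, with 4093 CPM in male 1 and 612 CPM in male 2. Nuclear genes of oxidative phosphorylation had 13927 CPM in male 1 and 12652 CPM in male 2, with cox6a2, a cytochrome oxidase subunit of muscle, as the highest member. Genes of the mitochondrial genome were not matched in the table and were not analysed here.

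Among organs, the liver list had 23533 CPM in male 1 and 27113 CPM in male 2. Of these sums apoa4 alone had 9030 CPM in male 1 and 11563 CPM in male 2, and its organ of origin was not tested. The next highest member of the list was ambp, the precursor of alpha-1-microglobulin and bikunin, with 4966 CPM in male 1 and 1877 CPM in male 2. Genes of red blood cells had 12577 CPM in male 1 and 17962 CPM in male 2, most of it from globins. The heart muscle list had 7478 CPM in male 1 and 4839 CPM in male 2, and most of that was the gene labelled myh7. That name belongs to a heavy chain that slow skeletal fibres share with the heart. The gene lay near LOC100495212, another of the 30 most read genes, on the minus strand of chromosome 10. Whether the label fits, and the organ these reads came from, were not tested. Genes of skin epithelium had 2953 CPM in male 1 and 1820 CPM in male 2, led by the cornified-envelope gene ppl (periplakin). Of these sums ppl had 1327 CPM in male 1 and 537 CPM in male 2, and dsp 742 CPM and 460 CPM. The organ of origin of these reads was not tested. The median level of the skin members with a read was 7.58 CPM. The nervous system list had 2341 CPM in male 1 and 1915 CPM in male 2, with the neurofilament gene nefl at 145 CPM in male 1 and 152 CPM in male 2. Connective tissue and bone genes had 1610 CPM in male 1 and 1209 CPM in male 2. Among them col1a1, a chain of type I collagen, had 337 CPM in male 1 and 93.4 CPM in male 2. Of the 32 members with at least 10 reads, 10 were more than 2-fold higher in male 1 and 3 in male 2 on the TMM scale. Over all genes with at least 10 reads these shares were 21.6% and 21.8%. Smooth muscle genes had 1042 CPM in male 1 and 1835 CPM in male 2. Leukocyte genes had 138 CPM in male 1 and 253 CPM in male 2, with 17 of 37 listed genes matched to the table. The median level of the members with a read was 7.59 CPM, beside 7.37 CPM over all genes with a read. Genes of the eye list had 219 CPM in male 1 and 249 CPM in male 2, of which gnb1, a G protein subunit used in many tissues, had 165 CPM in male 1 and 112 CPM in male 2. The lens crystallin gene crybb2 had 0 reads in male 1 and 32 in male 2, and sag, the arrestin gene of photoreceptors, 0 reads in male 1 and 17 in male 2. Genes of the poly(A) machinery itself had 3332 CPM in male 1 and 3708 CPM in male 2, most of it from pabpc1, which encodes the cytoplasmic poly(A)-binding protein.

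The gut, exocrine pancreas and kidney lists had the widest ratios of summed level between the males. The gut list had 1578 CPM in male 1 and 8459 CPM in male 2. Over all genes with at least 10 reads, 21.8% were more than 2-fold higher in male 2 and 21.6% more than 2-fold higher in male 1 on the TMM scale; of the 24 gut genes, 18 were more than 2-fold higher in male 2 and 2 in male 1. slc15a1, the intestinal peptide transporter, had 396 CPM in male 1 and 3268 CPM in male 2, and anpep, an aminopeptidase of the brush border, had 106 CPM in male 1 and 777 CPM in male 2. The fatty acid binding protein genes of enterocytes, fabp1 and fabp2, had 23.0 CPM and 13.7 CPM in male 1, and 325 CPM and 298 CPM in male 2. The exocrine pancreas had 7729 CPM in male 1 and 23910 CPM in male 2, and 13 of its 19 genes with at least 10 reads were more than 2-fold higher in male 2 and 0 in male 1. Chymotrypsin gene ctrc had 2293 CPM in male 1 and 7124 CPM in male 2, and the phospholipase gene pla2g1b had 120 CPM in male 1 and 290 CPM in male 2. The kidney list had 460 CPM in male 1 and 1773 CPM in male 2. Of these sums atp1b1 alone had 160 CPM in male 1 and 1209 CPM in male 2, and its organ of origin was not tested. In the kidney list 9 of 14 genes were more than 2-fold higher in male 2 and 1 in male 1. Other lists were also often apart: 5 of 9 eye genes were more than 2-fold higher in male 2 and 2 in male 1. Of 26 skin epithelium genes, 7 were more than 2-fold higher in male 2 and 9 in male 1. By the same count, 13 of 53 skeletal muscle genes were more than 2-fold higher in male 1 and 6 in male 2, and 2 of 79 ribosomal protein genes in male 1 and 21 in male 2. These counts compare 2 frogs, not conditions. TMM moved the median log2 ratio of male 1 over male 2 by 0.23 from that by library total, under which 17.5% of genes were over 2-fold higher in male 1 and 26.8% in male 2. Under that change 5 of 21 lists changed which male had the larger sum (ribosomal proteins, liver, poly(A) machinery, eye and egg), and the gut, pancreas, kidney and skeletal muscle lists did not.

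**Figure D2:**
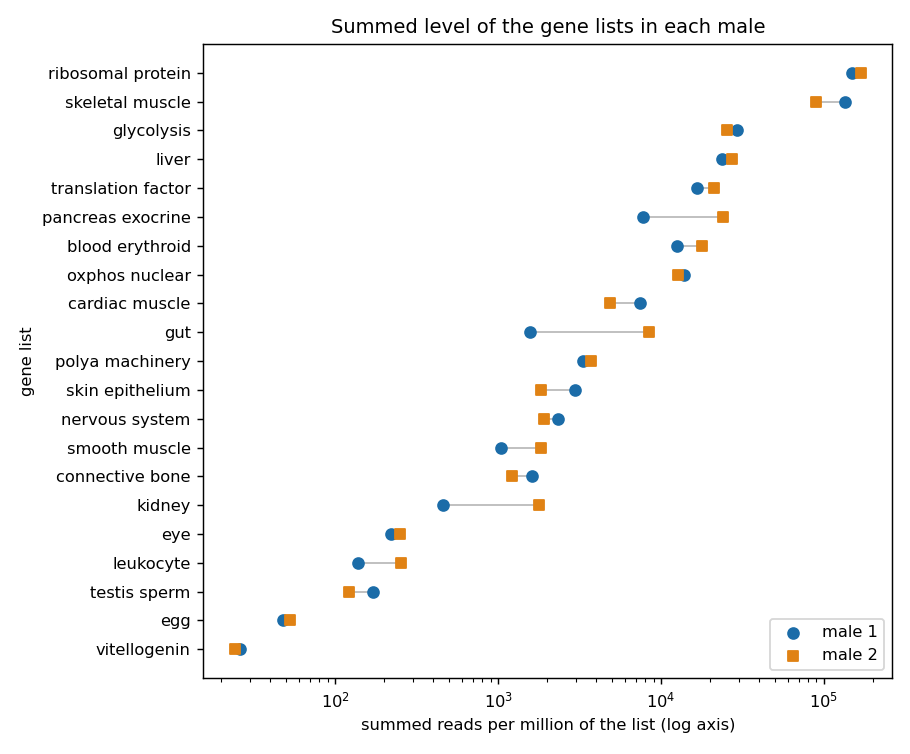
Summed level of each gene list in CPM on a log axis, with a circle for male 1 and a square for male 2 and lists in order of mean level. Ribosomal protein and skeletal muscle genes were highest, and the gut, kidney and exocrine pancreas lists showed the widest gaps between the frogs on the log axis.

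The matched genes of testis and sperm were a small part of the reads. Of 102 genes listed for testis and sperm, 48 were matched to the table and 38 had reads, with 169 CPM in male 1 and 122 CPM in male 2 in all. Genes that were not matched are not counted in these sums. Of the 19 with at least 10 reads, 9 were more than 2-fold higher in male 1 and 1 in male 2. Over all genes with at least 10 reads these shares were 21.6% and 21.8%. In either direction 52.6% of the 19 were over 2-fold apart, beside 43.4% of all genes and 54.7% of genes below 10 CPM. The highest was odf3, a gene of the sperm tail, with 22.7 CPM in male 1 and 25.5 CPM in male 2. brdt, a bromodomain gene of male germ cells, had 13.7 CPM in male 1 and 13.1 CPM in male 2. sycp1, a component of the synaptonemal complex of meiosis, had 34 reads in male 1 and 1 read in male 2. The meiotic genes spo11 and hormad1 had 0 reads in both males. The germ cell helicase gene ddx4 had 10 reads in male 1 and 2 reads in male 2.

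Most of the transcripts listed for the egg were near or at 0. Of 37 matched egg genes, 15 had a read in either male, with 47.5 CPM in male 1 and 52.9 CPM in male 2. lsm14b and gtf3a, which encode an RNA-binding protein and a 5S RNA transcription factor, held most of this and lay above the median of all genes with a read: lsm14b had 17.6 CPM in male 1 and 26.8 CPM in male 2, and gtf3a 10.8 CPM in male 1 and 11.1 CPM in male 2. The egg coat gene zp2, the oocyte growth factor genes gdf9 and bmp15, and pou5f3.3 and velo1 had 0 reads in both males. The yolk precursor gene vtga2 had 38 reads in male 1 and 7 reads in male 2.

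Most reads lay at sites that overlapped or lay inside annotated exons. The class codes of the table place each site relative to the annotated transcripts, and their meaning was taken from Cuffcompare, since the file names no scheme. Sites overlapping an exon held 54.5% of reads in male 1 and 58.3% in male 2 (56.4% ± 2.67). Sites inside an exon held 21.5% and 22.4% (21.9% ± 0.60). Sites downstream of a gene held 3.66% and 3.59%, sites across an exon and an intron 1.72% and 2.11%, and sites within an intron 5.04% and 3.98% (4.51% ± 0.75). Sites on the strand opposite to an exon held 0.48% of reads in male 1 and 0.28% in male 2. The exact binomial 95% interval of the first share, which covers counting error only and not the spread between frogs, ran from 54.4% to 54.5% in male 1 and from 58.2% to 58.3% in male 2.

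Counting sites instead of reads gave another order. A site was called used when it had at least 5 reads over both males, and 29177 sites were. Of these, 33.6% lay inside an exon, 24.3% within an intron and 18.7% overlapped an exon. A used site overlapping an exon had 440 reads on average over both males, a site inside an exon 94.4 and an intronic site 27.4. Sites within introns were thus many but had a low mean. The medians were closer, with 30 reads for a used site overlapping an exon, 18 inside an exon and 14 within an intron. The most read intronic site lay in mgarp, a gene of a mitochondrial protein, with 1636 CPM in male 1 and 462 CPM in male 2, and it held 99.1% of the reads of that gene in male 1 and 95.3% in male 2. The most read downstream site was the end of the globin gene hbg1, with 3375 CPM in male 1 and 6554 CPM in male 2, which was its only used site. Of 2375 used downstream sites, 1347 were in a gene that also had a used exonic site, at a median of 923 bases beyond it.

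**Figure D3:**
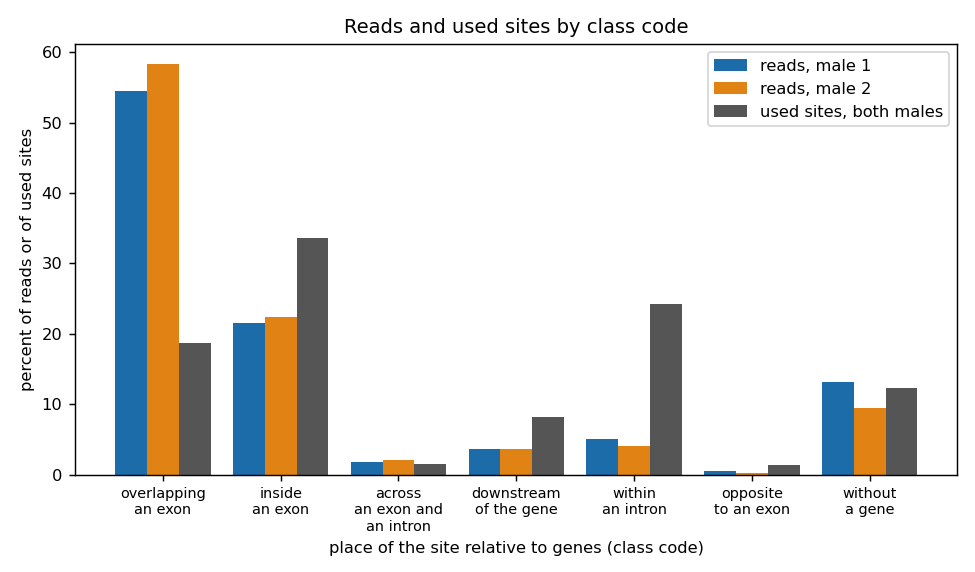
Percent of reads in male 1, of reads in male 2 and of used sites in both males (at least 5 reads over both) in each class code. Sites overlapping an exon held 54.5% and 58.3% of reads and 18.7% of used sites, and intronic sites held 5.04% and 3.98% of reads and 24.3% of used sites.

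Sites without a gene held 13.1% of reads in male 1 and 9.43% in male 2, from 3597 used sites. A few places accounted for much of this. The most read was a site on an unplaced scaffold (position 89245, minus strand), with 1785 CPM in male 1 and 22663 CPM in male 2. A stretch of chromosome 7, from 9057033 to 9090084 on the plus strand, had 26 sites, 11 of them without a gene; it held 4.18% of all reads in male 1 and 0.118% in male 2. Its most read site, at 9057456, had 14863 CPM in male 1 and 353 CPM in male 2. With the sites of that stretch left out, also of the total, the share of reads at sites with no gene was 9.46% in male 1 and 9.33% in male 2. With the scaffold site left out as well, it was 9.29% in male 1 and 7.22% in male 2.

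Another concentration of unassigned reads, chosen after its values were seen, lay on the plus strand of chromosome 9 between ccdc141 and plekha3. Between these 2 genes the table listed 195 sites without a gene on that strand, of which 136 were used. The 181 of them with a read lay from 58736360 to 58952233. That range also held 17 sites of LOC105948415 and LOC108648823, with 340 reads over both males. The sites without a gene had 19847 CPM in male 1 and 14177 CPM in male 2, which was 15.13% of the reads without a gene in male 1 and 15.03% in male 2. The most read, at 58757311, had 3658 CPM in male 1 and 1889 CPM in male 2. In the RefSeq gene order of a later assembly (UCB_Xtro_10.0), ttn, the gene of the giant sarcomere protein titin, lies between these neighbours. There ttn starts before LOC105948415, and no site in the table is named ttn. The site at 58757311 lay 42673 bases beyond a used site of ccdc141. Another well-read one, at 58818322, lay 35731 bases beyond a used site of LOC105948415. Whether these reads come from ttn was not tested, since no genome of the build of the table was at hand.

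A gene used 1 site about as often as several. Sites on the strand opposite to an exon were left out, and 473 used intronic sites on the strand opposite to their gene were kept. A used site was then found in 11379 genes. Of these, 5664 (49.8%) had 1 used site, 5715 (50.2%) had at least 2, 1045 (9.18%) at least 5 and 165 at least 10. Without intronic sites, 59.8% of 10386 genes had 1 used site. With only the intronic sites on the opposite strand left out, 49.5% of genes had at least 2. The share of genes with at least 2 sites was 51.0% in male 1 and 58.0% in male 2 when every site with a read was counted, and 44.6% and 40.5% when a site needed 5 reads in that male. The order of the frogs thus turned with the minimum, and no difference between them is drawn from these shares.

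**Figure D4:**
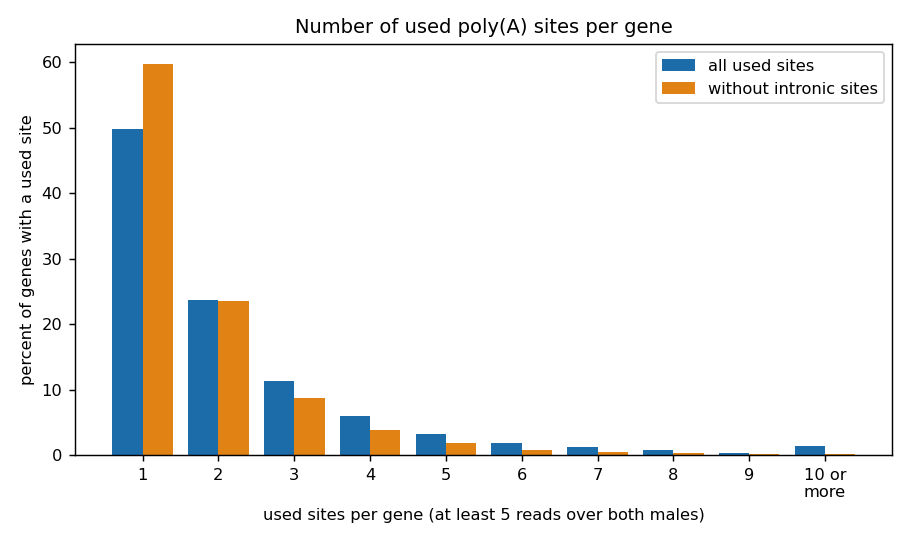
Percent of genes by their number of used poly(A) sites (at least 5 reads over both males), for all used sites (11379 genes) and without intronic sites (10386 genes). Genes with a single used site were 49.8% of the first and 59.8% of the second.

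Highly read genes ended mostly at 1 site even when they had others. Among 121 genes above 1000 CPM, 71.1% had at least 2 used sites, and the median share of the most used site was 99.7% over all of them and 99.2% over the 86 with at least 2. Among the 3440 genes of 10 to 100 CPM with at least 2 used sites, the median share of the most used site was 62.3%. Among the 725 such genes of 100 to 1000 CPM it was 76.3%. The fixed minimum of 5 reads is a larger part of a less read gene, so a 2nd used site lowers the share of the 1st more there. The rise of the share with level was not separated from this effect of the minimum. In genes with at least 2 used sites and a known strand (5621), the most used was the most downstream in 44.0%, the most upstream in 30.01% and in between in 26.0%. Neighbouring used sites outside introns lay a median of 796 bases apart.

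The genes with most used sites were of several kinds, and those described here are examples. xirp2, which encodes an actin-binding protein of striated muscle, had 31 used sites over 46013 bases of chromosome 9. Its most used site held 31.0% of its reads in male 1 and 28.0% in male 2. The giant thin-filament gene neb (nebulin) had 22 used sites, but its last site held 86.8% of its reads in male 1 and 82.0% in male 2. ankrd11, a chromatin regulator gene, had 21 used sites, 18 of them outside introns, and 1 held 47.8% of its reads in male 1 and 44.1% in male 2. In map3k4, a kinase gene, 19 of 21 used sites were intronic, and these include a site at 63383333 on the strand opposite to the gene. Used sites were also mostly intronic in zbtb16 (17 of 22), ebf3 (16 of 22), snd1 (18 of 21) and spon1 (19 of 20). By contrast, 0 of 24 were intronic in ehbp1l1 and 0 of 20 in golgb1.

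Several well-read genes had the same leading end in both frogs, at a similar share of their reads. trdn encodes triadin, which anchors calsequestrin in the muscle calcium store; its most used of 16 sites held 45.5% of its reads in male 1 and 48.0% in male 2, while another held 16.3% in male 1 and 6.92% in male 2. slc5a8, a monocarboxylate transporter gene, had 51.3% in male 1 and 57.1% in male 2 at its most used site, 25.9% and 29.0% at its most downstream one, and 21.5% and 13.0% at another. LOC100135138 had 2 used sites, 914 bases apart, and the upstream one held 53.4% of its reads in male 1 and 58.2% in male 2. The level of LOC100135138 itself was 1309 CPM in male 1 and 4634 CPM in male 2.

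Other genes had a different leading end in each male. calm2, one of the calmodulin genes, had 61.2% of its reads in male 1 and 19.99% in male 2 at its most downstream site, and 26.4% in male 1 and 70.5% in male 2 at a site 2253 bases upstream. The poly(A)-binding protein gene pabpc1 had its leading site at 115763573 in male 1, with 35.6% of reads in male 1 and 18.4% in male 2. Its leading site in male 2 was the next one downstream, only 82 bases away, with 23.8% in male 1 and 41.9% in male 2. Another pabpc1 site, at 115750171, came close to the leading one in male 1, with 32.9% in male 1 and 16.7% in male 2. In apoa4 the most used site was the same, with 84.7% of reads in male 1 and 50.6% in male 2. Of 4694 genes with at least 2 used sites and at least 10 reads in each male, 3142 (66.9%) had the same leading site in both males. The exact binomial 95% interval, 65.6% to 68.3%, treats these genes as independent draws and does not measure the counting error of reads. In the median gene 23.5% of reads lay at other sites in one male than in the other. Among the 1952 of these genes with at least 50 reads in each male, the share with the same leading site was 81.2%. Among the 589 with at least 200 it was 89.8%.

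The libraries agreed in part. Over 10219 genes with at least 10 reads over both males, log2(CPM + 1) of male 1 and male 2 correlated with a Pearson r of 0.78 and a Spearman rho of 0.72; over 21551 sites the values were 0.62 and 0.43. Genes and sites are not independent replicates, and these values describe 2 libraries of unequal depth. On the TMM scale 4434 genes (43.4%) were more than 2-fold apart, and the median gene was 1.78-fold apart. Of genes below 10 CPM 54.7% were over 2-fold apart, of genes between 100 and 1000 CPM 30.8%, and of the 121 genes above 1000 CPM 38.0%. The common biological coefficient of variation, the spread beyond counting error as edgeR estimates it, was 62.7%.

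**Figure D5:**
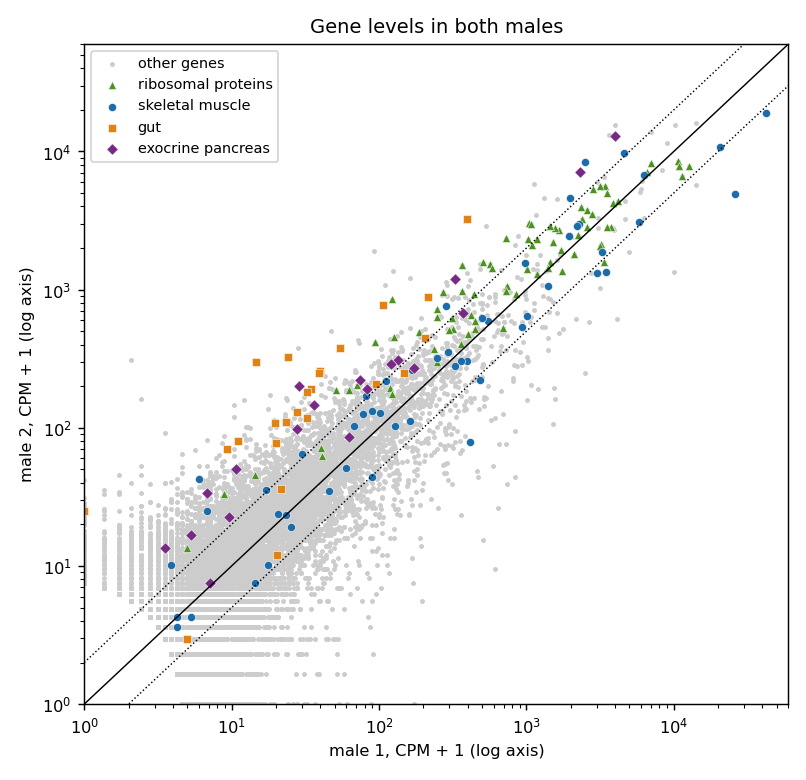
Level in male 2 against level in male 1, as CPM plus 1 on log axes, for genes with at least 10 reads over both males; the solid line is equality and the dotted lines are 2-fold. Gut, exocrine pancreas and ribosomal protein genes lay mostly above the equality line, and skeletal muscle genes on both sides of it.

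Agreement between the frogs differed with the place of a site. Over sites with at least 10 reads, the Pearson r of log2(CPM + 1) was 0.79 for sites overlapping an exon, 0.79 for sites across an exon and an intron, and 0.65 for sites inside an exon. It was 0.49 for downstream sites, 0.49 for sites without a gene, 0.31 for sites opposite to an exon and 0.16 for intronic sites. These classes differ in depth, since a used intronic site had 27.4 reads on average. Its median was 14 reads, beside 30 for a used site overlapping an exon. At a similar level, between 10 and 100 CPM, 42.8% of 1876 sites overlapping an exon and 52.9% of 745 intronic sites were more than 2-fold apart. Intronic sites were not alone in this: the share was 50.1% of 716 sites without a gene and 52.5% of 59 sites opposite to an exon. Of 1677 intronic sites with at least 20 reads in male 1, 179 (10.7%) had 0 reads in male 2, and of 2414 sites overlapping an exon, 11 (0.46%) did. In the other direction, of 497 intronic sites with at least 20 reads in male 2, 22 (4.43%) had 0 reads in male 1, and of 2180 overlapping an exon, 24 (1.101%) did. Sites opposite to an exon had shares of 11.2% and 4.88% by the same counts, from fewer sites (107 in male 1 and 41 in male 2). Over the sites of all classes the counts were 390 of 9559 (4.08%) and 126 of 6330 (1.99%). These counts were not matched for level, and 20 reads are a higher CPM in male 2 than in male 1. Between 10 and 100 CPM, 3.76% of intronic sites and 0.32% of sites overlapping an exon had 0 reads in 1 male. For sites without a gene this was 3.91%, and for sites opposite to an exon 5.08%.

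Among the genes farthest apart at a mean of at least 100 CPM, those higher in male 1 included LOC101731963, with 614 CPM in male 1 and 8.49 CPM in male 2, and LOC105947824, with 640 CPM in male 1 and 25.5 CPM in male 2. Both lie in the stretch of chromosome 7 described above. fam46a had 503 CPM in male 1 and 14.4 CPM in male 2, and erbb4, a receptor tyrosine kinase gene whose most used site is intronic, had 838 CPM in male 1 and 43.1 CPM in male 2. Those higher in male 2 included fabp2 and fabp1 of the gut list, and LOC101734670, with 3 reads in male 1 and 471 in male 2. LOC100494627 had 91.7 CPM in male 1 and 1893 CPM in male 2.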

How the data were processed

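Per the file headers, the deposited table holds the raw count of reads at each poly(A) site in each library, with a strand, a position, a gene and a class code. It lists 66426 sites in 15410 genes, and its line of totals was left out. Alignment software is named only as Bowtie2 2.2.3, per the submitters' processing notes. Genome build: not given in the sources used here, nor is the grouping of reads into sites or whether positions count from 0 or 1. The males had 2779715 and 1531471 reads. No molecular identifiers are named, so intervals of shares of reads and floors (3 reads) cover counting error only.

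CPM is the read count scaled to a library of 1000000 reads at all sites. Gene sums and counts of used sites per gene left out sites opposite to an exon and kept intronic sites on either strand. Correlations used log2(CPM + 1) of genes or sites with at least 10 reads over both males. Ratios of male 1 over male 2 used TMM factors with 0.5 reads added. edgeR 4.0.16 in R 4.3.3 gave the TMM factors (0.924 and 1.08) and the common dispersion, a step that was tested on simulated counts; pandas 2.3.3 and scipy 1.17.1 gave the rest. Chromosome numbers come from the RefSeq chromosomes of each sequence's gene symbols (UCB_Xtro_10.0), in which 13759 of 15131 symbols were found; sequences without one are called scaffolds. Reads shared by near-identical genes cannot be assigned with certainty.

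The members and the 22 gene lists were chosen with earlier results of these data known; 699 of 982 list entries matched the table. Named genes are the 30 most read, the 10 with most used sites, the 6 farthest apart on each side, the leading members of each list, the leading sites of each class and, among the most read, genes with several ends or with another leading end in each male. Genes of the testis and sperm and egg lists that stood at few or 0 reads, and myh3, mylpf, nefl, pla2g1b and sag, were chosen for naming after their values were seen. No sequences were analysed here.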

Additional observations from a re-analysis of the deposited data

How the results depend on the processing

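The low number of libraries (n = 2) and their unequal depth limit every value. A value was taken as moved beyond 1 SD between the males (shares of reads, levels and sums), beyond its binomial interval over genes (shares of genes), by over 0.005 (correlations) or by over 0.5 percentage points (coefficient of variation). Of 198 values recomputed with both males, 31 moved. With 1 of 2 males left out, a mean always stays within 1 SD, so that alternative says nothing about the stability of levels, sums and class shares. Class shares of the pooled reads of both males always stay within 1 SD too. TMM and similar scaling factors shift a mean level or sum little beside the gap between the males, and none of these values moved. Both kinds are among the 198, so the count of 31 is not a measure of stability.

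Without the 10 most read sites the shares of reads were 52.2% overlapping exons, 24.0% inside exons, 2.22% at exon-intron borders and 4.21% downstream, and the downstream share was 3.48% with sites of at least 10 reads and 3.69% without the stretch of chromosome 7 (chosen after seeing the data). The 10 most read genes of a single male held 13.8% to 17.3% of its reads.

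The percent of genes with at least 2 used sites was 60.6 at a minimum of 1 read, 43.1 at 10 reads, 46.6 when a site also needed 5% of the reads of its gene, 46.9 with a read in each male, 48.2 with male 1 thinned and 40.2 without intronic sites, and it was 40.5 to 44.6 with either male left out.

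Over genes the Pearson r was 0.83 at 1 read, 0.76 at 100 reads, 0.74 with 0.5 CPM added and 0.85 with 5 CPM added, and the Spearman rho was 0.78 at 1 read and 0.64 at 100 reads. Over sites r was 0.71 at 1 read, 0.65 at 100 reads, 0.57 with 0.5 CPM added and 0.76 with 5 CPM added, and rho was 0.49 and 0.51 at 1 and 100 reads. Genes over 2-fold apart were 52.7% at 1 read and 31.5% at 100 reads. The biological coefficient of variation was 66.7% at 1 read, 51.8% at 100 reads and 63.6% by library total. The same leading site was found in 81.2% of genes at 50 reads in each male and in 73.6% without intronic sites. Apart from fewer features or samples in these alternatives, the cause was not tested.

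Agreement, ratios and leading sites need both males, so leaving one out was not possible. No paired analysis was possible because the males are 1 group and no test was made. The share of sites with a poly(A) signal upstream was not run, since no genome was at hand.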
